A study of Mus musculus with 4 samples.

Results

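The genes described here are 10 genes of alveolar type 2 cells, the surfactant-making cells of the lung. They are Sftpa1, Sftpb, Sftpc, Sftpd, Lamp3, Abca3, Slc34a2, Lpcat1, Cebpa and Cd36. They were chosen by name, and all 10 were found by symbol among the 24391 genes counted in each sample. Of them, at least Lamp3, Cebpa and Cd36 are shared with other cells, as described below. The others are not taken to be particular to type 2 cells. The samples were 4 mouse lung tumours. In the K-Ras group, 2 tumours came from mice with the K-RasLSL-G12D allele, which carries an oncogenic substitution behind a stop cassette that Cre recombinase removes. In the Mll4-deleted group, 2 tumours came from mice with the same K-Ras allele and the floxed allele Mll4fl/fl, titled K-Ras Mll4-/- by the submitters, so that all 4 tumours share the K-Ras allele. Mll4, also named Kmt2d, encodes an enzyme that methylates lysine 4 of histone H3, largely at enhancers, and the design asks what its loss does to expression in these tumours. Tumours were digested to single cells, and leukocytes, which carry CD45, were depleted with magnetic beads before RNA was extracted. The Cre that was used, the cells it reached, the age of the mice and whether each sample was 1 mouse are not given in the sources used here. P-values therefore measure the spread between these samples, which may be technical.

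Alveolar type 2 cells line the air sacs and secrete surfactant, a film of phospholipid and protein that lowers surface tension. Lipid and the hydrophobic surfactant proteins B and C are packed in lamellar bodies, lysosome-related organelles that fuse with the cell surface, while the collectins, surfactant proteins A and D, bind sugars on microbes and serve in lung defence. These cells are also progenitors of the alveolus and a known cell of origin of K-Ras-driven lung adenoma and adenocarcinoma.

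Between 26683033 and 36677987 reads were assigned to genes in a sample. Kmt2d itself was at 395 and 526 CPM in the K-Ras samples and at 367 and 317 CPM in the Mll4-deleted samples. CPM here is counts per 1e6 reads, with library sizes scaled by TMM (trimmed mean of M values). The log2 fold change of Kmt2d, Mll4-deleted minus K-Ras, was -0.43 (SE 0.21, edgeR adjusted p = 0.302). Counts per whole gene do not resolve the loss of a floxed exon, so the deletion is taken from the labels. Airway markers set 1 library apart: the summed level of the ciliated list was 1139 CPM in K-Ras replicate 2 against 266 to 307 CPM in the other samples, and that of the club cell list was 5039 CPM against 914 to 1267 CPM.

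None of the 10 genes was called different between the groups at an adjusted p under 0.05 (edgeR quasi-likelihood test, Benjamini-Hochberg adjustment over 16001 tested genes), where 0.0375% of all tested genes were called. At an unadjusted p under 0.05 the count was 0 of 10, against 21.8% of all tested genes. DESeq2 called 0 of 10 against 10.4% of genes, and the edgeR likelihood ratio test called 0 of 10 against 9.39%. Sftpb alone had an unadjusted p under 0.05 in those last 2 tests. The 10 log2 fold changes ran from -0.45 for Cd36 to 1.03 for Sftpb, 5 above and 5 below 0, with a median of -0.08 against -0.01 over all tested genes. Both Mll4-deleted samples lay above both K-Ras samples for 2 of the 10 genes (Sftpb and Lpcat1), against 29.9% of all tested genes, and below both for 2 (Sftpa1 and Cd36), against 28.5%. The groups thus did not overlap for 4 of 10 genes, against 58.3% of all genes.

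**Figure D1:**
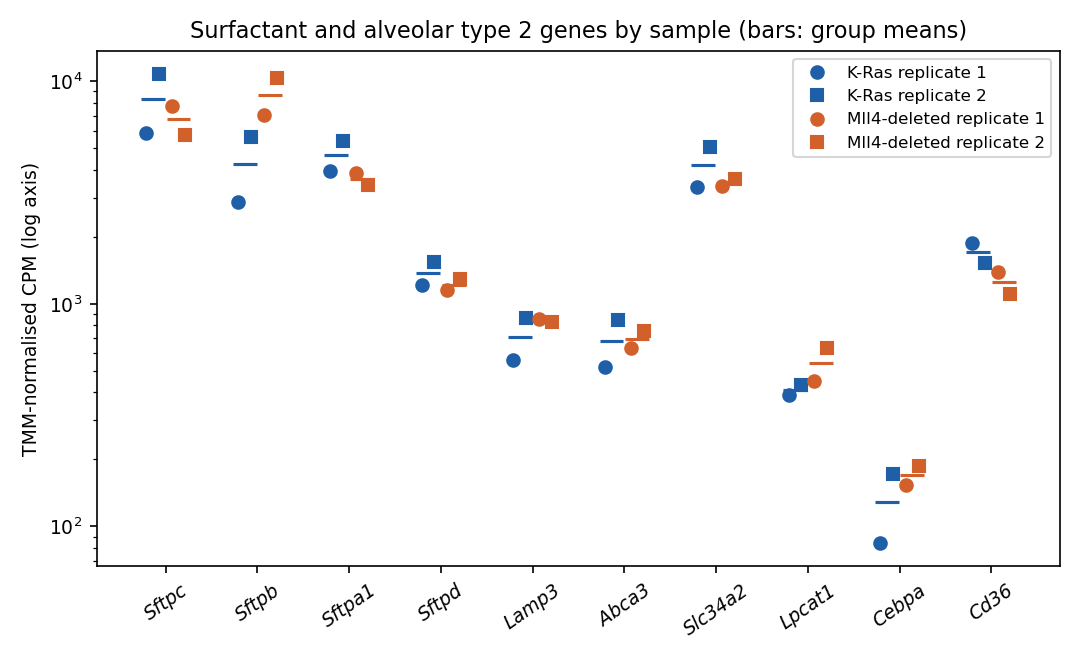
TMM-normalised CPM (log axis) of each gene in each of the 4 samples, with group means as bars (n = 2 per group). Sftpb is the gene whose groups stand farthest apart, and the K-Ras replicates differ widely for Sftpc, Sftpb and Cebpa.

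**Figure D2:**
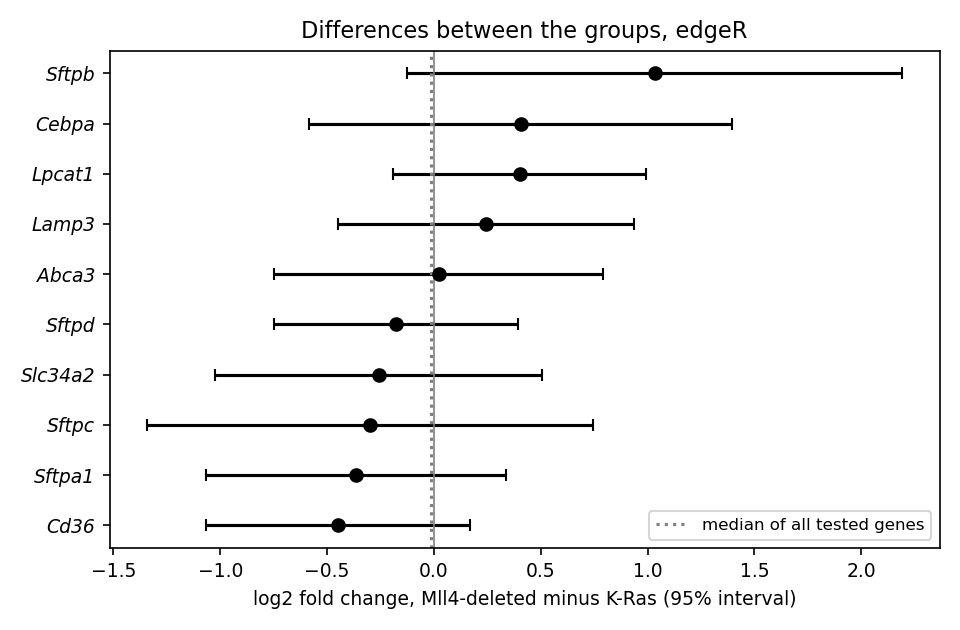
Log2 fold change of each gene, Mll4-deleted minus K-Ras, with its 95% interval from the edgeR quasi-likelihood fit (n = 2 per group). Every interval spans 0, and that of Sftpb runs from -0.13 to 2.19.

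The 10 genes were among the more abundant transcripts of these tumours. Levels of different genes were compared as CPM per kilobase of the longest transcript. By the mean over the 4 samples, Sftpc ranked 3 and Sftpb 4 of the 15862 tested genes with a known length, followed by Sftpa1 at 15, Sftpd at 19, Slc34a2 at 24 and Cd36 at 72. Lamp3 ranked 166, Lpcat1 333, Abca3 412 and the transcription factor gene Cebpa 922. The order of the group means was the same in both groups. In K-Ras tumours Sftpc was at 10473 ± 4380 CPM per kilobase and Cebpa at 48.8 ± 23.6, and in Mll4-deleted tumours at 8515 ± 1779 and 64.8 ± 8.54 (SD, n = 2 each). Within the K-Ras samples the ranges of neighbouring levels overlapped for Sftpd (956 and 1207 CPM per kilobase) and Slc34a2 (799 and 1216), and for Lpcat1 (106 and 117) and Abca3 (80.6 and 129.9). No neighbouring genes in the order overlapped within the Mll4-deleted samples.

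Sftpb (gene ID 20388, chromosome 6, 72304610 to 72314373, GRCm38) encodes surfactant protein B, a small hydrophobic protein that is required for lamellar body formation and for spreading of the lipid film. It was at 2871 and 5629 CPM in the K-Ras samples and at 7045 and 10342 CPM in the Mll4-deleted samples. Both Mll4-deleted values were the higher, and K-Ras replicate 1 was the lowest of the 4 by a wide margin. The log2 fold change was 1.03 (SE 0.44, 95% interval -0.13 to 2.19), which is 2.05-fold, and it was not called (edgeR adjusted p = 0.258). The sign was the same under every alternative run, but the size depended on single libraries, from 0.63 without K-Ras replicate 1 to 1.59 without K-Ras replicate 2, with adjusted p values from 0.0672 to 0.800 over all alternatives.

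Sftpc (gene ID 20389, chromosome 14, 70520941 to 70524081) encodes surfactant protein C, a lipopeptide whose precursor is made by type 2 cells. It was at 5842 and 10747 CPM in the K-Ras samples and at 7740 and 5748 CPM in the Mll4-deleted samples. K-Ras replicate 2 was the highest, K-Ras replicate 1 and Mll4-deleted replicate 2 were close together, and the groups overlapped. The log2 fold change was -0.30 (SE 0.39, 95% interval -1.34 to 0.74, edgeR adjusted p = 0.686). Without K-Ras replicate 2 the sign reversed to 0.19. As a fold, the interval of Sftpc runs from 0.395 to 1.68.

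The collectin genes lie close together on chromosome 14. Sftpa1 (gene ID 20387, 41131788 to 41136373) encodes surfactant protein A and was at 3944 and 5411 CPM in the K-Ras samples and at 3854 and 3404 CPM in the Mll4-deleted samples. The groups did not overlap, but K-Ras replicate 1 exceeded Mll4-deleted replicate 1 by a small margin. Its log2 fold change was -0.37 (SE 0.27, 95% interval -1.07 to 0.34, edgeR adjusted p = 0.461), and it was -0.13 without K-Ras replicate 2. Sftpd (gene ID 20390, 41172212 to 41185198) encodes surfactant protein D and was at 1218 and 1539 CPM in the K-Ras samples and at 1149 and 1286 CPM in the Mll4-deleted samples. These ranges overlapped. Its log2 fold change was -0.18 (SE 0.22, 95% interval -0.75 to 0.39, edgeR adjusted p = 0.657), and it was -0.014 without K-Ras replicate 2.

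Levels relative to Sftpc within the same sample do not depend on the scaling between libraries. They do depend on Sftpc itself, which all ratios to it share. Its level in replicate 2 was 1.84 of that in replicate 1 in the K-Ras samples and 0.743 in the Mll4-deleted samples. Per kilobase, Sftpb stood at 0.261 and 0.278 of Sftpc in the K-Ras samples and at 0.484 and 0.956 in the Mll4-deleted samples. The K-Ras values were close together, although the replicate ratios of the genes themselves were 1.96 for Sftpb and 1.84 for Sftpc, and both Mll4-deleted values were the higher. Of the 9 genes set against Sftpc, 3 had both Mll4-deleted ratios above both K-Ras ratios (Sftpb, Lamp3 and Cebpa), against 16% of all tested genes, and 0 had both below, against 8.69%. The ratio of Cebpa to Sftpc was 0.00436 and 0.00483 in the K-Ras samples and 0.00601 and 0.00976 in the Mll4-deleted samples. That of Lamp3 was 0.0226 and 0.0189 against 0.0260 and 0.0341. In CPM, without division by Sftpc, the groups overlapped for Cebpa and for Lamp3. The ratio of Sftpb to the collectin gene Sftpa1 was 1.39 and 1.99 in the K-Ras samples and 3.50 and 5.82 in the Mll4-deleted samples, a log2 difference of 1.44. With 2 samples in each group, the smallest p of an exact two-sided permutation test is 0.333, so these ratios are given without a test, and the pair Sftpb and Sftpa1 was chosen after its values were seen.

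**Figure D3:**
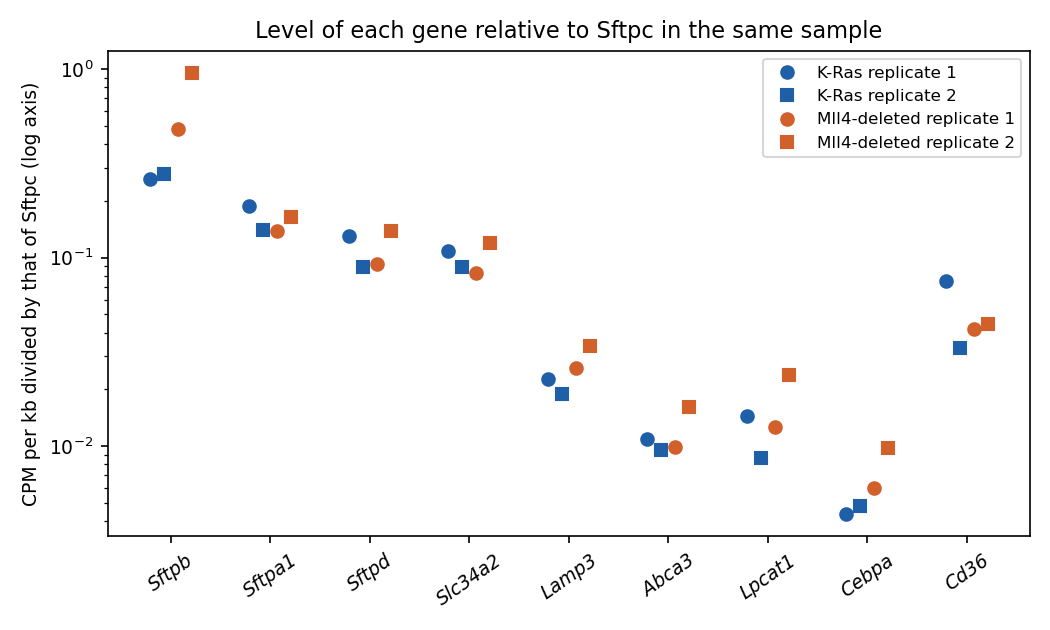
Level of each gene per kilobase divided by that of Sftpc in the same sample (log axis), 4 samples, n = 2 per group. The Mll4-deleted samples lie above both K-Ras samples for Sftpb, Lamp3 and Cebpa, and the groups overlap for the other 6 genes.

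Promoter sequences were available for 8 of the 10 genes in the RefSeq table of GRCm38.p6, and Sftpc and Sftpd were not among them. The 250 bases before the start site in that table were searched on both strands for CTCAAG, the core that the lung factor NKX2-1 binds, for TGTTTAC, a forkhead core of the FOXA type, and for TTGCNNAA, a core bound by C/EBP factors such as the product of Cebpa. CTCAAG occurred 2 times in the Sftpb promoter, at 100 to 95 and at 15 to 10 bases before the start, and 1 time in the Sftpa1 promoter, at 166 to 161 bases before it. It occurs in 13.3% of all 32851 promoters in that window. TGTTTAC occurred only in the Lamp3 promoter (3.17% of all promoters), and TTGCNNAA only in that of Slc34a2 (9.56%), among the 8. The promoters of the 4 genes whose groups did not overlap are shown, written 5′ to 3′ along the gene, with motif matches in capitals. A match is a run of letters and not a measured binding site.
Sftpb promoter, chr6:72304360-72304609, plus strand: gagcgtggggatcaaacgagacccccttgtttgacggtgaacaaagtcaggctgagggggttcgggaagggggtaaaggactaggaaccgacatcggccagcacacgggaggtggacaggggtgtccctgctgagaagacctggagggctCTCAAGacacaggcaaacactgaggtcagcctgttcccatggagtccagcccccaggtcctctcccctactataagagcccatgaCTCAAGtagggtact
Sftpa1 promoter, chr14:41131538-41131787, plus strand: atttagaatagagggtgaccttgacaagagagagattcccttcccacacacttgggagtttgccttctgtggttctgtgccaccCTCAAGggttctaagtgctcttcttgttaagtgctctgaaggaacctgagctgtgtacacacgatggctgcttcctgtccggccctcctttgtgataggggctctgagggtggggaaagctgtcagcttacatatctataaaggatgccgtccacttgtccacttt
Lpcat1 promoter, chr13:73466981-73467230, plus strand: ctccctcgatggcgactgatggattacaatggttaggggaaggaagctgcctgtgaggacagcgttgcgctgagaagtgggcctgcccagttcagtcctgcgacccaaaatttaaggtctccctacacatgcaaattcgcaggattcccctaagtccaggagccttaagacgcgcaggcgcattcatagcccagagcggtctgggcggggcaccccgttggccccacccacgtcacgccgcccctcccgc
Cd36 promoter, chr5:17835897-17836146, minus strand: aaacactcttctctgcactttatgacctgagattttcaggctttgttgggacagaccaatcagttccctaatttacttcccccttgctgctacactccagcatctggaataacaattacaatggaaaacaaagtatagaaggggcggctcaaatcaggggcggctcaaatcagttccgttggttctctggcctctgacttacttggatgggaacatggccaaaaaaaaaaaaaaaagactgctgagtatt

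For Cd36 the start site in that table lies 53063 bases inside the gene span given below, so its window precedes an internal start and not the outermost one. The windows of Lpcat1 and Cd36 hold none of the 3 motifs searched. The 4 windows also differ in base composition, with a GC content of 58.4% in the Sftpb window, 60.8% for Lpcat1, 50% for Sftpa1 and 43.2% for Cd36.

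Abca3 and Lamp3 belong to the lamellar body. Abca3 (gene ID 27410, chromosome 17, 24351921 to 24410204) encodes the transporter that loads phospholipid into it, and was at 522 and 841 CPM in the K-Ras samples and at 630 and 755 CPM in the Mll4-deleted samples. Both Mll4-deleted values lay between the K-Ras values. Between the groups the log2 fold change was 0.02 (SE 0.29, 95% interval -0.75 to 0.79, edgeR adjusted p = 0.969), and its sign was negative with total count scaling (-0.019), with upper quartile scaling (-0.030), without K-Ras replicate 1 (-0.28) and without Mll4-deleted replicate 2 (-0.12). Lamp3 (gene ID 239739, chromosome 16, 19653381 to 19706365) encodes a membrane protein of lamellar bodies that mature dendritic cells also make. It was at 559 and 862 CPM in the K-Ras samples and at 854 and 829 CPM in the Mll4-deleted samples. K-Ras replicate 1 was low and the other 3 samples were close together. Lamp3 had a log2 fold change of 0.24 (SE 0.26, 95% interval -0.45 to 0.94, edgeR adjusted p = 0.614), and it was -0.031 without K-Ras replicate 1. None of the 9 dendritic cell markers was called, where the share was 0.0375% over all tested genes. These markers had a summed level of 198 and 175 CPM in the K-Ras samples and 125 and 99.9 CPM in the Mll4-deleted samples. Their part in the Lamp3 levels was not tested.

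Slc34a2 and Lpcat1 serve the turnover of surfactant lipid. Slc34a2 (gene ID 20531, chromosome 5, 53049353 to 53071664) encodes the sodium phosphate cotransporter of the type 2 cell surface, and was at 3337 and 5077 CPM in the K-Ras samples and at 3390 and 3643 CPM in the Mll4-deleted samples. K-Ras replicate 2 was the highest, and the other 3 samples lay close together. For Slc34a2 the log2 fold change was -0.26 (SE 0.29, 95% interval -1.02 to 0.51, edgeR adjusted p = 0.630), and it was 0.062 without K-Ras replicate 2. Lpcat1 (gene ID 210992, chromosome 13, 73467231 to 73516420) encodes the acyltransferase that remodels phosphatidylcholine to the dipalmitoyl form of surfactant. It was at 391 and 431 CPM in the K-Ras samples and at 451 and 634 CPM in the Mll4-deleted samples. The groups did not overlap, though K-Ras replicate 2 and Mll4-deleted replicate 1 differed little. Its log2 fold change was 0.40 (SE 0.23, 95% interval -0.19 to 0.99, edgeR adjusted p = 0.353), and it was 0.13 without Mll4-deleted replicate 2.

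Cebpa (gene ID 12606, chromosome 7, 35119293 to 35121928) encodes the transcription factor C/EBP alpha, which acts in type 2 cell maturation and also in myeloid cells. It was the least abundant of the 10 genes, at 84.4 and 172 CPM in the K-Ras samples and at 154 and 186 CPM in the Mll4-deleted samples. K-Ras replicate 1 was low, and the other 3 samples lay near each other. Its log2 fold change was 0.41 (SE 0.37, edgeR adjusted p = 0.553), with a 95% interval from 0.668-fold to 2.63-fold. It was -0.013 without K-Ras replicate 1 and 0.998 without K-Ras replicate 2.

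Cd36 (gene ID 12491, chromosome 5, 17781690 to 17888959) encodes a fatty acid translocase and scavenger receptor that type 2 cells share with microvascular endothelium and macrophages. It was at 1879 and 1526 CPM in the K-Ras samples and at 1391 and 1102 CPM in the Mll4-deleted samples, so both Mll4-deleted samples were the lower. Cd36 had a log2 fold change of -0.45 (SE 0.23, 95% interval -1.07 to 0.17, edgeR adjusted p = 0.326). Leaving out each sample in turn gave values between -0.62 and -0.29. The summed level of the 14 endothelial markers was 9757 and 9832 CPM in the K-Ras samples and 6413 and 5102 CPM in the Mll4-deleted samples. Of those markers 11 had both Mll4-deleted samples below both K-Ras samples, against 28.5% of all tested genes, and 0 had both above, against 29.9%. None was at 0 in every sample, and 0 were called, where the share was 0.0375% over all tested genes. The most abundant of the 14 markers were Vwf (log2 fold change -1.20) and Calcrl (-0.70), neither called, with edgeR adjusted p values of 0.147 and 0.186. The 14 counted macrophage and monocyte markers summed to 7668 and 1165 CPM in the K-Ras samples and to 4737 and 1395 CPM in the Mll4-deleted samples, so they set the replicates of each group apart. The part of these cells in the Cd36 levels was not tested. In bulk RNA, fewer cells of a type and less RNA per cell cannot be told apart.

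The K-Ras replicates differed from each other in most of these genes. Of the 10 genes, 9 were higher in K-Ras replicate 2 than in K-Ras replicate 1, the exception being Cd36 at 0.812 of the replicate 1 level. The median ratio was 1.53 over the 10 genes, against 1.01 over all tested genes, and the ratio was highest for Cebpa (2.04), Sftpb (1.96) and Sftpc (1.84). Club cell markers summed to 1267 CPM in K-Ras replicate 1 and 5039 CPM in K-Ras replicate 2. The part of airway cells in the levels of the 10 genes was not tested. The Mll4-deleted replicates differed less, with a median ratio of replicate 2 to replicate 1 of 1.097 and a range from 0.743 for Sftpc to 1.47 for Sftpb. By their centred log2 CPM over the 4 samples, Sftpd and Slc34a2 were the closest pair of the 10 (Euclidean distance 0.20), and Sftpb was farthest from its nearest neighbour, Cebpa (0.63). Among 4613 other tested genes with a mean of at least 50 CPM, those nearest to Sftpc were Ucp2 (distance 0.06), Cbx6 (0.12) and Slc39a4 (0.12). With 4 samples such likeness is a description only.

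**Figure D4:**
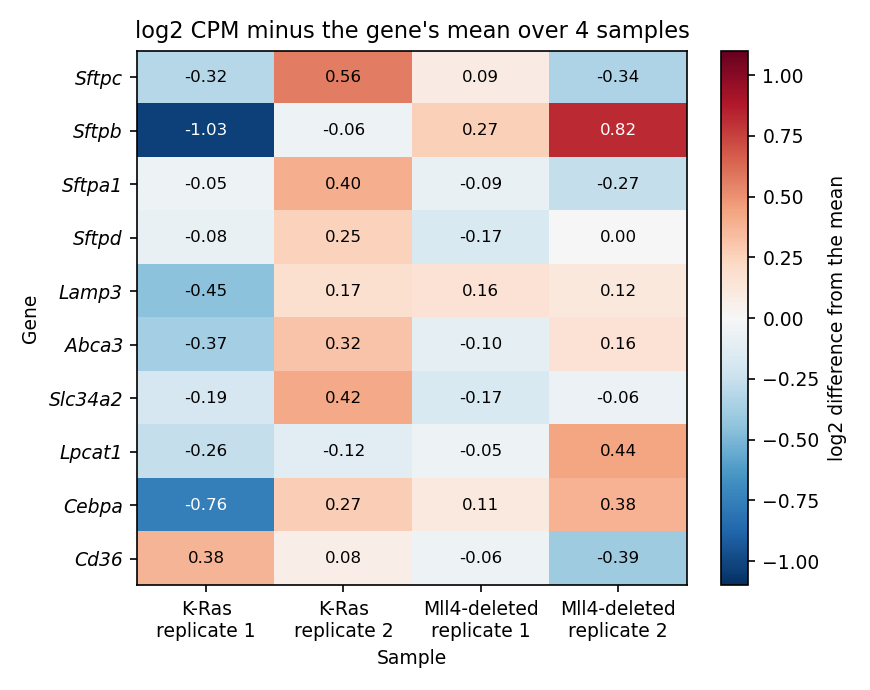
Log2 CPM of each gene in each sample minus the gene's mean over the 4 samples (colour and printed value, log2 units). K-Ras replicate 2 is above the mean for 8 of the 10 genes and K-Ras replicate 1 below it for 9, with Sftpb, Lpcat1 and Cebpa highest in Mll4-deleted replicate 2.

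Of 10 pan-epithelial markers 0 were called, where the share was 0.0375% over all tested genes. These 10 markers had a mean log2 CPM of 6.38 and 6.95 in the K-Ras samples and 7.30 and 7.43 in the Mll4-deleted samples. Of them, 8 had both Mll4-deleted samples above both K-Ras samples (29.9% of all tested genes) and 2 had both below (28.5%). The most abundant of them were Krt18, a keratin (log2 fold change 2.07, edgeR adjusted p = 0.136), and Cdh1, the E-cadherin gene (1.11, adjusted p = 0.211). When each sample was scaled to these markers, the log2 differences were negative for 9 of the 10 genes, from -1.15 for Cd36 to -0.21 for Cebpa, and stayed positive for Sftpb at 0.38. Lamp3 (-0.42), Abca3 (-0.64), Lpcat1 (-0.32) and Cebpa reversed their sign on this scale. Both Mll4-deleted samples then lay below both K-Ras samples for 7 of the 10 genes and above both for 0, but this scale moves every gene, and the shares over all tested genes were 72.5% and 3.1%. The median was -0.76 over the 10 genes and -0.71 over all tested genes. This scaling is no test of epithelial content, since 8 of the markers themselves lay higher and 2 lower. The part of epithelial content in the levels of the 10 genes was not tested.

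**Figure D5:**
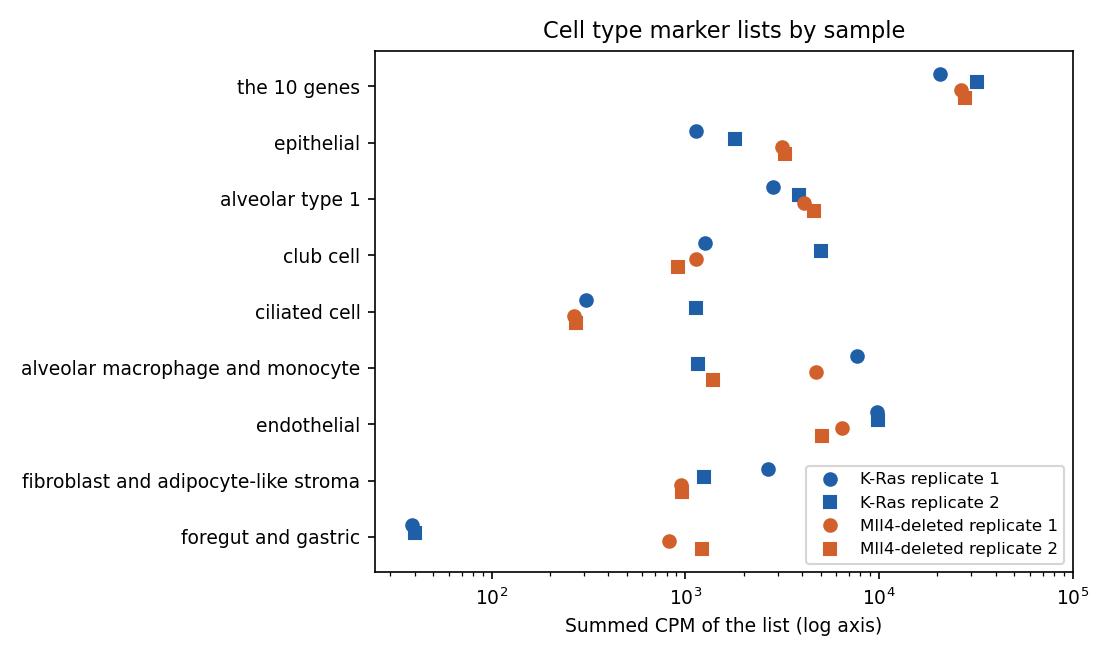
Summed CPM (log axis) of the 10 genes and of 8 cell type marker lists in each of the 4 samples. Epithelial, alveolar type 1 and foregut lists are higher and endothelial, stromal, club and ciliated lists lower in both Mll4-deleted samples. Club and ciliated lists are high in K-Ras replicate 2, and the 10 genes together range from 20647 to 32236 CPM with overlapping groups.

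Genes of surfactant processing and secretion outside the 10 were read from a list of 21, of which 20 were tested. None was called. At an unadjusted p under 0.05, 6 were higher and 1, Adgrf5, was lower in the Mll4-deleted tumours, where the shares over all tested genes were 11.4% higher and 10.4% lower. The median log2 fold change was 0.15, against -0.01 over all tested genes. Ctsh, the cathepsin that takes part in processing the precursors of surfactant proteins B and C, was at 537 and 688 CPM in the K-Ras samples and at 1447 and 2296 CPM in the Mll4-deleted samples. Both Mll4-deleted values were the higher, as for 29.9% of all tested genes, and its log2 fold change was 1.61 (SE 0.31, edgeR adjusted p = 0.147). Rab38, a small GTPase of lysosome-related organelles, had a log2 fold change of 1.30 (adjusted p = 0.177) and Scamp5, a membrane trafficking protein gene, one of 0.75 (adjusted p = 0.348). Adgrf5 encodes the receptor that limits the surfactant pool and is also made by endothelium. It was at 2174 and 2605 CPM in the K-Ras samples and at 1726 and 1348 CPM in the Mll4-deleted samples (log2 fold change -0.64, edgeR adjusted p = 0.229), and it was singled out after its values were seen.

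The lipid genes showed no common direction. All 32 genes of surfactant lipid synthesis and handling were tested and 0 were called, where the share was 0.0375% over all tested genes. At an unadjusted p under 0.05, 7 were higher and 1 (Pltp) lower, against 11.4% and 10.4% of all tested genes. The median log2 fold change was -0.01, as over all tested genes. Elovl6, a fatty acid elongase gene, had a log2 fold change of 0.95 (adjusted p = 0.185), and Lpl, the lipoprotein lipase gene, one of -0.85 (adjusted p = 0.344). Pcyt1b, an isoform gene of the rate-limiting enzyme of phosphatidylcholine synthesis, had the largest absolute value at -1.03 (adjusted p = 0.316) from a low level of 2.29 to 6.72 CPM. Pltp, named after its values were seen, encodes a phospholipid transfer protein and had a log2 fold change of -0.78.

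The list of transcription factor genes for type 2 cells is not particular to them, and also holds factors of other stages, such as Sox9. All 19 were tested and 0 were called, where the share was 0.0375% over all tested genes. At an unadjusted p under 0.05, 6 were higher and 0 lower, against 11.4% and 10.4% of all tested genes, and the median log2 fold change was 0.39, against -0.01. Sox9, a factor of the embryonic lung tip, was at 4.02 and 2.96 CPM in the K-Ras samples and at 40.9 and 46.1 CPM in the Mll4-deleted samples, the widest separation in the list. Its log2 fold change was 3.64 (SE 0.23, edgeR adjusted p = 0.0603). Klf5, a Krüppel-like factor gene, was at 19.6 and 40.6 CPM against 66.2 and 111.8 CPM (log2 fold change 1.56, adjusted p = 0.186). Pparg, a nuclear receptor gene of lipid metabolism, had a log2 fold change of 1.43 (adjusted p = 0.209). Nkx2-1, the main regulator of surfactant genes, was named outside the rule for that role. It was at 45.7 and 62.7 CPM in the K-Ras samples and at 47.8 and 64.9 CPM in the Mll4-deleted samples, and the log2 values of the groups differed by 0.06 (SE 0.24, adjusted p = 0.913).

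Other identity genes of type 2 cells were likewise mixed. Of 23 tested, 0 were called, where the share was 0.0375% over all tested genes. At an unadjusted p under 0.05, 4 were higher and 2 lower, against 11.4% and 10.4% of all tested genes. The median log2 fold change was 0.15, against -0.01. Chil1, a chitinase-like protein gene, was at 1780 and 1649 CPM in the K-Ras samples and at 766 and 521 CPM in the Mll4-deleted samples (log2 fold change -1.41, SE 0.26, edgeR adjusted p = 0.147). Cldn18, a tight junction gene that type 1 cells also use, was at 290 and 385 CPM against 709 and 843 CPM (1.20, SE 0.22, edgeR adjusted p = 0.147). Counts per whole gene do not tell which isoform of Cldn18, or which cells, the reads came from. Slc6a14, an amino acid transporter gene, had a log2 fold change of 1.15 (adjusted p = 0.206). The other genes past that unadjusted threshold were Egfl6 and Il33, higher, and Mlc1, lower, and these 3 are named after their values were seen.

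Markers of the other cells in the samples were read the same way. Over all tested genes 0.0375% were called, so 0 called in a short list does not show a lack of change. The 15 alveolar type 1 markers had a median log2 fold change of 0.38, with 0 called. Their most abundant genes were Clic5 (0.06) and Cav1 (-0.25). The 8 club cell markers had a median of -1.49, led in abundance by Scgb1a1 (-1.83) and Cbr2 (-2.08). The 10 ciliated markers had one of -2.36, led by Tubb4b (-0.27) and Dnah5 (-2.45), with 0 called in either list. In both lists K-Ras replicate 2 stood apart. Club cell markers summed to 1267 and 5039 CPM in the K-Ras samples and to 1133 and 914 CPM in the Mll4-deleted samples. Ciliated markers summed to 307 and 1139 CPM against 266 and 273 CPM. The macrophage and monocyte list had a median of -0.02, led by Chil3 (-0.69) and Lpl, and the dendritic list one of -0.46, led by Clec9a (-1.20) and Zbtb46 (-0.89). The 10 leukocyte markers had a median of 0.13, led by Ptprc (0.08), the gene of CD45, and Laptm5 (0.49). Ptprc was at 274 and 143 CPM in the K-Ras samples and at 269 and 171 CPM in the Mll4-deleted samples, so leukocyte RNA remained after the depletion. The medians were -0.76 for the endothelial list and -0.69 for the stromal list, the latter led by Col3a1 (-1.06) and Col1a2 (-1.21). None of the macrophage, dendritic, leukocyte, endothelial or stromal markers was called. Foregut and gastric genes had a median of 4.70 over 11 tested. Of these Gkn2, the gastrokine 2 gene, was called (6.72, edgeR adjusted p = 0.0184), and Ctse, the cathepsin E gene, was not (4.70, adjusted p = 0.116). Of 6 red blood cell genes, 2 were tested, 2 had no reads in any sample and 0 were called. Alas2, the heme synthesis gene of erythroid cells, had a log2 fold change of -0.17.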

How the data were processed

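The authors deposited raw counts of reads for each gene symbol, 1 file per sample, not normalised as the whole-number values show. The 5 closing tally lines were left out. The submitters' processing notes name CASAVA 1.4, STAR, HTSeq and the mm9 build. Their settings, the annotation and the strand setting are not given in the sources used here, so reads from overlapping antisense genes cannot be told apart. Positions, names and promoters are from RefSeq GRCm38.p6 and lengths from GENCODE M21 transcripts. They were matched by symbol, and no coordinate was converted.

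Groups came from the sample titles. Genes were filtered (filterByExpr, 16001 kept), scaled by TMM and fitted over all genes with edgeR 4.0.16 in R 4.3.3 (quasi-likelihood test, robust), and called at a Benjamini-Hochberg adjusted p under 0.05. Standard errors are |log2 fold change| over the root of the F statistic. Centred log2 values used a pseudocount of 0.5. The lowest count of any of the 10 genes in any sample was 2581 reads (Cebpa), so counting error is small beside the spread between samples. Replicates differed by more than sampling noise, with a chi-square per gene of 129 between the K-Ras samples and 48.7 between the Mll4-deleted samples.

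The 10 genes and all lists were chosen with earlier results of these data known. Genes named beyond the 10 were Kmt2d and Ptprc, the 3 largest absolute log2 fold changes in each of 4 surfactant lists, the 2 most abundant markers of each of 11 cell type lists, and the 3 genes nearest to Sftpc. Of these, 1 marker gene is not reported here. Any other is said to be chosen afterwards or for its role. Alternatives were other scalings, other count filters, limma-voom (limma 3.58.1), DESeq2 1.42.0, a likelihood ratio test in edgeR, a non-robust fit, a replicate block, GC and length offsets (mgcv 1.9.3), scaling to epithelial markers, and leaving out each sample. The fits were tested on simulated counts.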

Additional observations from a re-analysis of the deposited data

How the results depend on the processing

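Under all 16 alternatives with a test, 0 of the 10 genes were called. Over all genes, against 6 calls, there were 44 with no count filter, 1601 with DESeq2, 1503 with the likelihood ratio test and 0 with limma-voom (3228 genes at an unadjusted p under 0.05), and 0 to 528 on leaving out each sample (528 without K-Ras replicate 1). Replicate numbers recur in both groups, but what samples of equal number share is not stated. With the replicate block 217 genes were called, with the replicate block and GC and length offsets 411, and neither called any of the 10 genes. Samples of equal number had deviations from their group mean that correlated at 0.24.

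Sftpa1, Sftpb, Sftpd and Cd36 kept their sign under all 17 alternatives. The sign reversed without K-Ras replicate 2 for Sftpc (0.19) and Slc34a2 (0.062), and without K-Ras replicate 1 for Lamp3 (-0.031), Cebpa (-0.013) and Abca3 (-0.28). Abca3 also reversed without Mll4-deleted replicate 2 (-0.12), with total count scaling (-0.019) and with upper quartile scaling (-0.030). Scaling to epithelial markers reversed Lamp3 (-0.42), Abca3 (-0.64), Lpcat1 (-0.32) and Cebpa (-0.21), where the median of all genes also moved to -0.71. The smallest adjusted p of any of the 10 genes under any alternative was 0.0672, for Sftpb. On leaving out each sample, the log2 fold change ranged from -0.67 to 0.19 for Sftpc, from -0.031 to 0.58 for Lamp3, from -0.28 to 0.40 for Abca3, from -0.53 to 0.062 for Slc34a2 and from -0.013 to 0.998 for Cebpa. That leaves 1 group with a lone sample, assumed to vary like the others. The cause of these shifts was not tested.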
